A study of Mus musculus with 295 samples.

Results

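Fat from mice with a high interferon response was set against fat from mice with a low one, within an F2 cross of C57BL/6J and C3H/HeJ, both parental strains being ApoE null. The adipose tissue came from female and male mice that ate a Western diet rich in fat from week 8 to week 24 of age, and all mice shared the ApoE null background and the diet. Each array set the Cy3-labelled RNA of 1 mouse against a Cy5-labelled pool of all mice, so each value is a log2 ratio of mouse over pool. The labels give no sex, genotype at any marker or weight for a single mouse. A ratio to a pool of the same tissue holds no absolute level, so the labelled tissue could not be checked against its markers.

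The mice were chosen by 3 measured values. Of 295 arrays, 247 were kept because the log2 ratio of Gpx5, an epididymis gene, was at or below -1.66, while 47 arrays were above that limit and 1 had no Gpx5 value. The highest kept array had -3.01 and the lowest array above the limit 0.24. An interferon score was taken for each kept mouse as the mean of its z-scores for Ifit3 and Irf7. The 41 mice of the upper sixth form side A, the high-score mice, and the 41 mice of the lower sixth form side B, the low-score mice, 82 of 295 in all. The lowest score in side A was 0.882 with 0.858 for the next mouse outside it, and the highest score in side B was -0.874 with -0.865 for the next mouse outside it. No gap marks either edge.

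Interferons are secreted proteins that cells release on sensing viral nucleic acid or, for interferon gamma, on activation of T cells and NK cells. Type I interferons act through the receptor chains Ifnar1 and Ifnar2 and the kinases Jak1 and Tyk2, which lead to a complex holding Stat2 and Irf9 that binds a DNA element called ISRE. Interferon gamma has its own receptor and induces Irf1. Ifit3, an antiviral protein of the IFIT family, and Irf7, a factor that amplifies type I interferon synthesis, are both induced by interferon. In fat, leukocytes are a source of interferons, and adipocytes can respond to them.

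Promoter windows of some interferon-induced genes are printed to show whether each holds an ISRE-like core close to the transcription start. They are RefSeq's on GRCm38.p6, from 250 bases before the start to 50 after it, 5′ to 3′ on the gene's own strand. Capitals mark GAAA followed by any 2 bases and GAAA again, or the same core read from the other strand (TTTC, 2 bases, TTTC), with overlapping matches counted. The windows are chr19:34583279-34583578 (plus strand) for Ifit3, chr7:141266375-141266674 (minus strand) for Irf7, chr19:34640639-34640938 (plus strand) for Ifit1, chr11:58199306-58199605 (plus strand) for Igtp, chr3:142559794-142560093 (plus strand) for Gbp3 and chr5:92348840-92349139 (minus strand) for Cxcl10.
Ifit3: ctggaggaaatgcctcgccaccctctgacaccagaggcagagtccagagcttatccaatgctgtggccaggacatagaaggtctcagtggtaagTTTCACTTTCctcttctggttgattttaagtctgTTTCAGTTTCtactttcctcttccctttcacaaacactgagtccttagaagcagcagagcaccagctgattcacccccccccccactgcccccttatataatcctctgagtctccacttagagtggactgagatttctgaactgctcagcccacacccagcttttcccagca
Irf7: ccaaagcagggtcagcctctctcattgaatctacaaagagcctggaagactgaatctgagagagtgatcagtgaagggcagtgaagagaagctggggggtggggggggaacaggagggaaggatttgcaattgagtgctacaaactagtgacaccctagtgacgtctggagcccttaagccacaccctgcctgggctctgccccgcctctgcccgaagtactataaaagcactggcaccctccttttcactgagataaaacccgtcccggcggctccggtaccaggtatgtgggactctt
Ifit1: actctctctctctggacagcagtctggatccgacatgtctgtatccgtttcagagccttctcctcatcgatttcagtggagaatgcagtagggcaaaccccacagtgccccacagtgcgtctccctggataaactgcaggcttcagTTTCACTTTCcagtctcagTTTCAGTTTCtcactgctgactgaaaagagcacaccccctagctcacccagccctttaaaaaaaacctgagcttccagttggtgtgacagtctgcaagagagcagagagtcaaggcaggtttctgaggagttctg
Igtp: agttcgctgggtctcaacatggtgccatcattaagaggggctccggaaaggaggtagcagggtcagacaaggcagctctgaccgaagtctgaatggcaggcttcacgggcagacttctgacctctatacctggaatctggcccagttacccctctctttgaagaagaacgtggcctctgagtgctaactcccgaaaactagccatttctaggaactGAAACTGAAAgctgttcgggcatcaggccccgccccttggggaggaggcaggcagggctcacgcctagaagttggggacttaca
Gbp3: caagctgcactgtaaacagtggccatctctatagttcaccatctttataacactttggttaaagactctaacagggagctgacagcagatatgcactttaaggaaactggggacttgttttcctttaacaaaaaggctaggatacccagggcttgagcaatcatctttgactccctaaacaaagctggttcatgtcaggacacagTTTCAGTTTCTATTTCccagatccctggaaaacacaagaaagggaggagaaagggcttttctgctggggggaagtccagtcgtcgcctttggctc
Cxcl10: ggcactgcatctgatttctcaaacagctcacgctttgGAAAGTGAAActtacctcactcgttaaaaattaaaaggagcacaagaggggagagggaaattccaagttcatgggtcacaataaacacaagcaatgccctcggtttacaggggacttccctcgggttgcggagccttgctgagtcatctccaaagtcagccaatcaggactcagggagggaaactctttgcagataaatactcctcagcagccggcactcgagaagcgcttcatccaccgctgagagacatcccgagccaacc
The first bases of the matches lay 156 and 122 bases before the start in Ifit3 and 104 and 85 bases before it in Ifit1. They lay at 45 and 39 bases in Gbp3, where the 2 matches overlap, at 34 bases in Igtp and at 213 bases in Cxcl10. The window of Irf7 held none, which says only that these letters are not in it. Some windows were examined and are not printed. Those of Ifit2 and Adar, antiviral effectors of the lists, held none, and those of Irgm1, Tgtp1, Ifih1 and Stat2 held a match. Of all 32851 windows in the RefSeq table, 1131 (3.44%) held a match. Each gene named or counted here stands with the first window listed for it. By that count, 292 of 8590 measured genes with a window held a match (3.40%). Of 36 interferon list genes with a window that were higher in side A by the comparison within sets described later, 17 held one (47.2%), and of 31 list genes with a window that did not pass, 11 did (35.5%). Over all called genes with a window, inside the lists or not, 47 of 387 higher in side A held a match (12.1%). Of 175 such genes lower in side A, 2 did (1.14%). A match is a run of letters and not a shown binding site.

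The values that placed the mice are given as a description. Ifit3 ran from -0.10 to 1.45 with a median of 0.64 in side A, and from -1.12 to -0.06 with a median of -0.56 in side B. Irf7 ran from 0.05 to 1.54 with a median of 0.55 in side A, and from -1.20 to -0.12 with a median of -0.80 in side B. A mouse could enter a side with a moderate value of 1 gene and an extreme value of the other. Pearson's r of both genes was 0.52 over the 247 kept mice, 0.30 over the 142 with low Eif2s3y and 0.43 over the 105 with high Eif2s3y, as a description over mice that share the pool.

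**Figure D1:**
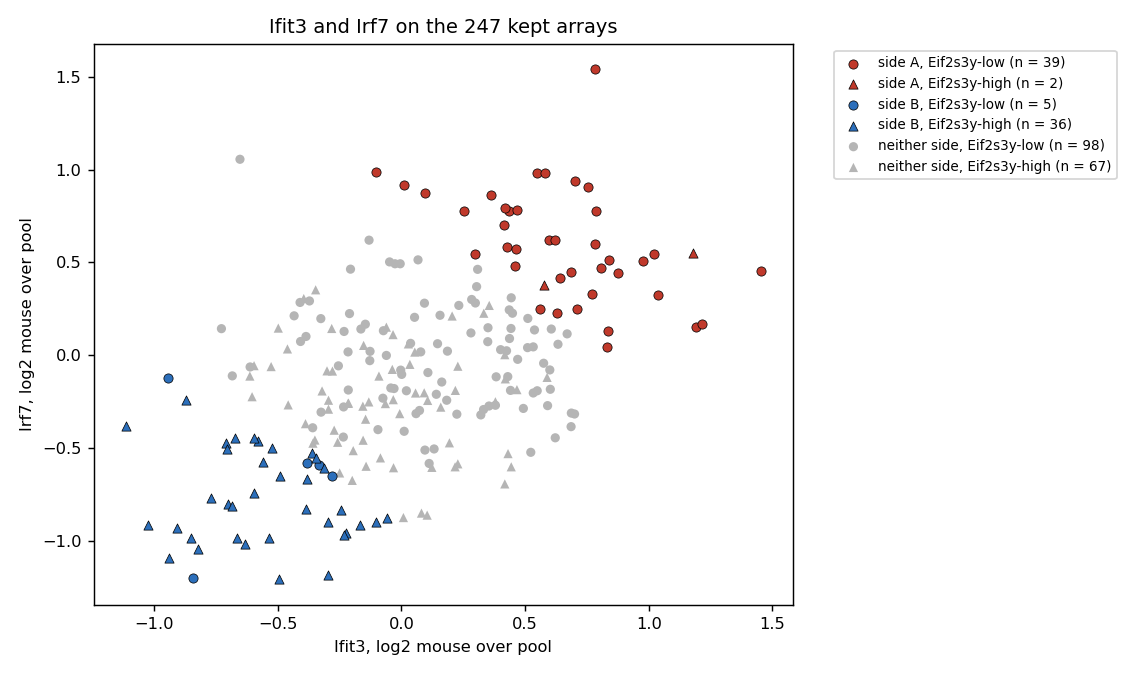
Ifit3 (x axis) and Irf7 (y axis) as log2 ratios of mouse over pool, 1 point per kept mouse, marked by side and Eif2s3y set. Side A lies at the upper right and holds 39 Eif2s3y-low mice and 2 Eif2s3y-high mice, and side B lies at the lower left and holds 5 Eif2s3y-low and 36 Eif2s3y-high mice.

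The sides split almost along Eif2s3y, a translation factor gene on the Y chromosome. No kept mouse had a log2 ratio of Eif2s3y between -4.16 and -0.10, and the limit between the sets was -1.99. Side A held 39 Eif2s3y-low mice and 2 Eif2s3y-high mice (numbers 114 and 122), and side B held 5 Eif2s3y-low mice (numbers 83, 246, 289, 305 and 359) and 36 Eif2s3y-high mice. The Eif2s3y-low share was thus 95.1% in side A and 12.2% in side B, and 57.5% of all kept mice. Ifit3 averaged 0.25 ± 0.44 in Eif2s3y-low mice and -0.21 ± 0.40 in Eif2s3y-high mice (SD, n = 142 and 105). Irf7 averaged 0.14 ± 0.42 in Eif2s3y-low mice and -0.41 ± 0.39 in Eif2s3y-high mice. With no term for the set, 2919 (12.7%) of 23006 probes were higher and 3419 (14.9%) lower in side A at an adjusted p under 0.05 by limma. Between the sets themselves, over all kept mice, 7832 (34.0%) of 23008 probes were higher and 7445 (32.4%) lower in Eif2s3y-low mice. Macrophage genes are an example: 14 of 17 were lower in side A with no term for the set, 0 of 17 with it (1 at an unadjusted p under 0.05), and 17 of 17 were lower in Eif2s3y-low than in Eif2s3y-high mice.

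Both comparisons that follow take the set into account. The first keeps the sides as drawn over the whole cross and fits the set as a covariate, and its information within a set rests on the 7 mice in the smaller cells. The other draws the sixths anew within each set, which gives 23 against 23 Eif2s3y-low mice and 17 against 17 Eif2s3y-high mice, 40 on each side. It shares 25 mice of side A and 22 of side B with the whole-cross sides, so the comparisons are not independent. Scores of the redrawn side A began at 1.22 in Eif2s3y-low mice and at 0.04 in Eif2s3y-high mice, so a high score in that set is a lower one. By mouse number, in 3 groups from low to high, the redrawn sides held 7, 19 and 14 mice in side A and 11, 14 and 15 in side B. In bulk fat, more cells of a type and more RNA per cell cannot be told apart.

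In the whole-cross sides with the set as covariate, 32 of the 83 tested interferon list genes were higher in high-score mice. Of 23006 probes, 179 (0.778%) were higher and 26 (0.113%) lower in side A, with 4433 at an unadjusted p under 0.05. The 12 genes with the largest rise were Pou2af1, a coactivator of B cells, Ccr6 and Cxcr5, chemokine receptors of lymphocytes, Ms4a4c, Cd3g, a T cell receptor subunit, Sh2d1a and Sh2d2a, adaptors of T cell signalling, Ifi44l, an interferon-induced gene, Ptprcap, a CD45-associated protein, Tgtp1, an immunity-related GTPase, Il4i1, an amino acid oxidase of immune cells, and Ikzf3, a lymphoid transcription factor. Their log2 differences, where 1 unit is 2-fold, ran from 1.39 for Sh2d2a to 2.13 for Pou2af1. Pou2af1 rose by 2.13 ± 0.55 (SE, limma adjusted p = 0.0369) and Tgtp1 by 1.46 ± 0.20 (adjusted p = 1.78e-07). The 7 interferon lists hold 115 genes, of which 83 were tested: 32 were higher and 0 lower, and their median log2 difference was 0.32, beside -0.01 over all probes. Several of the 12 leading genes are known from lymphocytes. Yet 1 of 13 tested T cell and NK cell genes, Cd3g, was higher by limma, with 5 at an unadjusted p under 0.05. Of 9 B cell and plasma cell genes 0 were higher, with 7 at an unadjusted p under 0.05. A lymphocyte score, the mean z-score over both lists, was 0.80 and 1.47 in the 2 Eif2s3y-high mice of side A. It ran from -1.07 to 0.72 in the 36 Eif2s3y-high mice of side B. With that score as a covariate, 91 of the 23006 probes were higher and 15 lower, and 25 of the 83 interferon genes were higher and 0 lower.

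Genes lower in high-score mice in this fit differed by little. The 12 with the most negative difference were Wdfy1, an endosomal protein, Olfr895, an olfactory receptor, Dtx4, a ubiquitin ligase, Virma, a subunit of the RNA methylation complex, Mgat3 and Galnt4, glycosyltransferases, Btg1c, Oprk1, the kappa opioid receptor, Rbm18, Prl8a2, a prolactin family hormone, Dbn1, an actin-binding protein, and Gng8, a G protein subunit. Their log2 differences lay between -0.47 for Wdfy1 and -0.20 for Gng8. In the sides drawn within sets Dtx4 (-0.17, adjusted p = 0.0352) and Dbn1 (-0.14, adjusted p = 0.0192) passed and the other 10 did not. The counts rest on few mice: the numbers higher and lower were 1013 and 1639 without mouse 246, 67 and 0 without mouse 83, 84 and 8 without mouse 114, 89 and 12 without mouse 122, 94 and 9 without mouse 359 and 151 and 40 without mouse 289. The array of mouse 83 had the widest spread over probes of all kept arrays, an SD of 0.83 beside a median of 0.56 in its set. A regression on the score over all 247 mice, with the set as covariate, had 1485 (6.45%) probes higher and 1056 (4.59%) lower with the score.

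With the sides drawn within each set, 899 (3.91%) probes were higher and 413 (1.8%) lower in side A. Of the 83 interferon list genes 46 were higher and 0 lower, with a median log2 difference of 0.35 beside -0.01 over all probes. In Eif2s3y-low mice alone, 278 (1.21%) probes were higher and 113 (0.491%) lower, and 38 interferon genes were higher and 0 lower. In Eif2s3y-high mice alone, 248 (1.08%) probes were higher and 52 (0.226%) lower, and 32 interferon genes were higher and 0 lower. Lymphocyte content moved with the sides: 7 mice of side A and 0 of side B had a lymphocyte score, the mean z-score of the T, NK, B and plasma cell lists, above 1. Without those 7 mice, 511 (2.22%) probes were higher and 130 (0.565%) lower, and 41 interferon genes were higher and 0 lower. The values below come from these redrawn sides unless another comparison is named, and each gene is given by its most variable probe.

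Among ligands and receptors, 2 of 9 tested genes were higher. Ifng, the gene of interferon gamma, ran from -0.51 to 2.34 with a median of 0.14 in side A of the Eif2s3y-low set, against -1.05 to 0.13 with a median of -0.48 in side B. In the Eif2s3y-high set it ran from -0.43 to 1.82 with a median of 0.71 in side A, against -0.90 to 0.93 with a median of -0.34 in side B. The sides overlapped in both sets, and the log2 difference was 0.82 ± 0.12 (SE, limma adjusted p = 3.29e-07). In the whole-cross sides Ifng differed by 1.11 ± 0.23 (adjusted p = 0.00357). Ifnar2, a chain of the type I receptor, differed by 0.22 ± 0.07 (adjusted p = 0.0334) and did not pass without the 7 lymphocyte-rich mice (0.19, adjusted p = 0.153). The type I interferon genes tested did not pass: Ifnb1 differed by -0.11 (adjusted p = 0.166), Ifna1 by 0.05 (adjusted p = 0.802) and Ifna2 by -0.08 (adjusted p = 0.762).

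In signalling, 5 of 15 genes were higher. Stat2, a subunit of the ISRE-binding complex, averaged 0.24 ± 0.26 in side A and -0.19 ± 0.21 in side B (SD, n = 40 each), a log2 difference of 0.42 ± 0.05 (SE, limma adjusted p = 3.06e-10). Irf9, its DNA-binding partner, differed by 0.28 ± 0.04 (adjusted p = 7.19e-07) and Irf1, a factor induced by interferon gamma, by 0.38 ± 0.05 (adjusted p = 3.14e-07). Tbk1, a kinase that activates Irf3 and Irf7, differed by 0.12 ± 0.03. Socs1, a feedback inhibitor of the kinases, differed by 0.40 ± 0.11 but did not pass without the lymphocyte-rich mice (0.25, adjusted p = 0.0932). Jak1 (0.14), Jak2 (0.15), Tyk2 (-0.06) and Irf3 (0.08) were among the 10 that did not pass.

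Of the nucleic acid sensors, 4 of 8 were higher. Ifih1, the sensor of long double-stranded RNA also called MDA5, averaged 0.34 ± 0.25 in side A and -0.08 ± 0.17 in side B (SD, n = 40 each), a log2 difference of 0.42 ± 0.05 (SE, limma adjusted p = 3.33e-10). Zbp1, a sensor of Z-form nucleic acid, differed by 0.70 ± 0.10 and Ifi203, a member of the HIN-200 family, by 0.58 ± 0.05. These 3 passed in each set alone. Tlr7, the endosomal receptor of single-stranded RNA, differed by 0.42 ± 0.12 but did not pass without the lymphocyte-rich mice (0.33, adjusted p = 0.133). Tlr3 (0.22), Tlr9 (-0.01), Ifi204 (0.30) and Ifi205 (0.18) did not pass.

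The antiviral effectors formed the list with most genes, and 22 of 34 were higher. Ifit1, which like Ifit3 belongs to the IFIT family, ran from -0.27 to 1.63 with a median of 0.75 in side A of the Eif2s3y-low set, against -0.94 to 0.44 with a median of -0.15 in side B. In the Eif2s3y-high set it ran from -0.20 to 0.91 with a median of 0.10 in side A, against -1.02 to -0.18 with a median of -0.52 in side B. The sides overlapped in the Eif2s3y-low set and barely in the Eif2s3y-high set, whose side A overlapped with side B of the other set. The log2 difference within sets was 0.83 ± 0.07 (SE, limma adjusted p = 2.03e-15). Parp14, an ADP-ribosyltransferase, had the lowest adjusted p of the named genes (6.62e-18) at 0.62 ± 0.05. In Eif2s3y-low mice its sides did not overlap, from 0.17 to 0.68 in side A and from -0.67 to 0.04 in side B. Oas2, an enzyme that makes the activator of RNase L, differed by 0.80 ± 0.07, Oasl2 by 0.76 ± 0.09, Ifit2 by 0.71 ± 0.06, Mx2, a dynamin-like GTPase, by 0.56 ± 0.06 and Ifi47 by 0.94 ± 0.09. Each of these 7 genes also passed in each set alone. The windows of Ifit1 and Ifit2 lie near that of Ifit3, a gene of the score, on chromosome 19. No genotype is given for these F2 mice, so the part of alleles shared by neighbouring genes was not tested. Rsad2, which encodes viperin, differed by 0.61 in Eif2s3y-low mice (adjusted p = 0.00344) and by 0.16 in Eif2s3y-high mice (adjusted p = 0.59), and the test of that difference between sets gave an adjusted p of 1. Mx1 (0.17), Ifitm1 (-0.05), Oas3 (0.07) and Xaf1 (0.02) were among the 12 that did not pass.

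Usp18, the protease that removes ISG15 and restrains the type I receptor, was higher, 1 of 3 tested genes of ISG15 conjugation. It ran from 0.25 to 1.31 with a median of 0.61 in side A of the Eif2s3y-low set, against -1.26 to 0.21 with a median of -0.22 in side B. In the Eif2s3y-high set it ran from -0.19 to 0.64 with a median of 0.12 in side A, against -1.18 to 1.28 with a median of -0.66 in side B. The sides did not overlap in the Eif2s3y-low set. In the Eif2s3y-high set mouse 237 of side B had 1.28 and the next mouse of that side 0.16. The log2 difference over both sets was 0.83 ± 0.08 (SE, limma adjusted p = 5.7e-13). Isg15 itself differed by 0.16 ± 0.06 (adjusted p = 0.0892).

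Guanylate-binding and immunity-related GTPases, which attack vacuoles that hold pathogens and are strongly induced by interferon gamma, had the highest median log2 difference of the 33 lists, 0.87. Of 8 tested, 7 were higher, and 7 without the lymphocyte-rich mice. Igtp ran from -0.06 to 2.29 with a median of 0.62 in side A of the Eif2s3y-low set, against -0.92 to 0.13 with a median of -0.37 in side B. In the Eif2s3y-high set it ran from -0.38 to 1.52 with a median of 0.23 in side A, against -1.13 to 0.02 with a median of -0.71 in side B. The medians of the sides lay apart in both sets while the ranges overlapped, and the log2 difference was 1.0 ± 0.09 (SE, limma adjusted p = 1.27e-13). Iigp1 differed by 1.16 ± 0.12, Tgtp1 by 1.10 ± 0.11, Gbp3 by 0.85 ± 0.07, Irgm1 by 0.68 ± 0.07, Irgm2 by 0.60 ± 0.08 and Gbp2 by 0.54 ± 0.09. Tgtp1 has a near-identical copy, and its probe may read both. Gbp2b had an SD of 2.12 over the kept mice, and its difference of 0.90 ± 0.48 did not pass (adjusted p = 0.311).

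**Figure D2:**
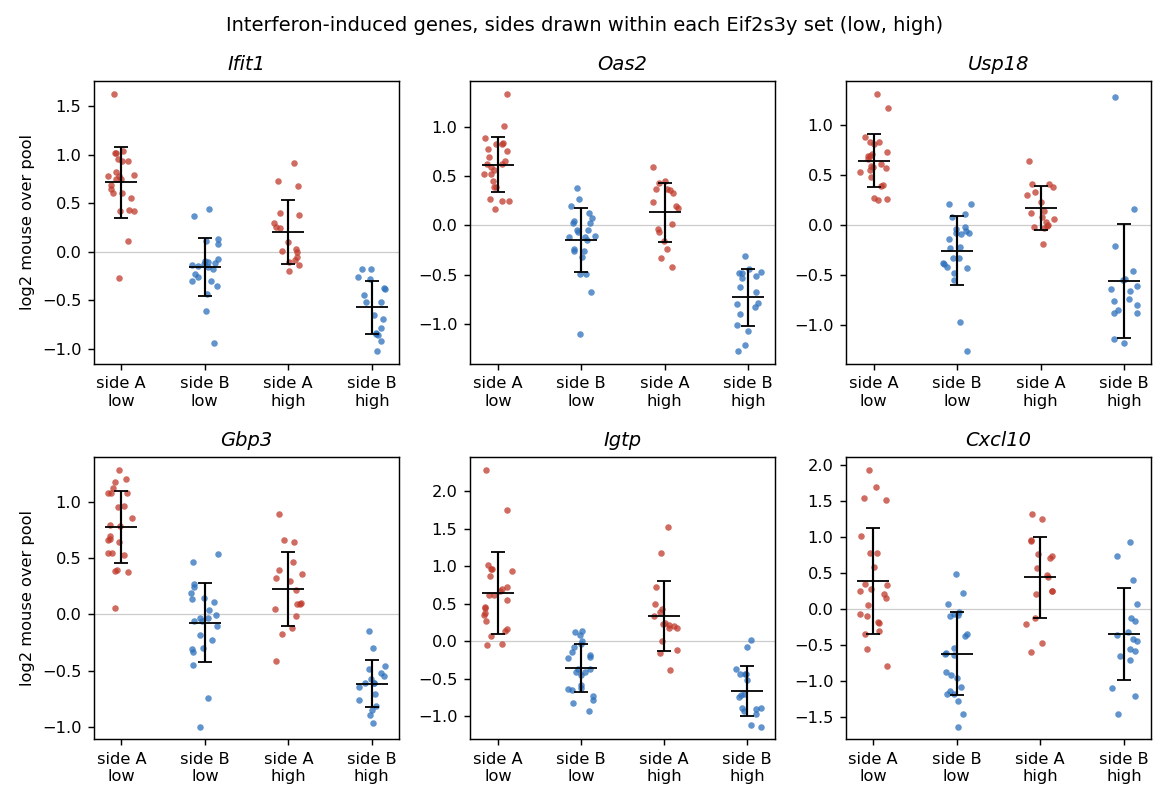
Log2 ratio of mouse over pool (y axis) of 6 interferon-induced genes, 1 point per mouse, in side A and side B drawn within the Eif2s3y-low set (23 mice each) and the Eif2s3y-high set (17 mice each). Bars are mean ± SD. In each panel the mean of side A lies above that of side B in both sets, and Usp18 shows 1 mouse of side B at 1.28.

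Of the interferon-induced chemokines, 5 of 6 were higher. Cxcl10, a ligand of Cxcr3 that draws activated T cells, ran from -0.79 to 1.94 with a median of 0.25 in side A of the Eif2s3y-low set, against -1.63 to 0.48 with a median of -0.63 in side B. In the Eif2s3y-high set it ran from -0.60 to 1.32 with a median of 0.47 in side A, against -1.46 to 0.93 with a median of -0.42 in side B. The ranges overlapped widely, and the log2 difference was 0.92 ± 0.14 (SE, limma adjusted p = 1.68e-06). Cxcl9, a ligand of the same receptor, differed by 0.99 ± 0.11, Ccl5, made by T cells and NK cells among others, by 0.95 ± 0.14, Ccl12, a monocyte attractant, by 0.48 ± 0.09 and Cxcl11 by 0.13 ± 0.04. Cxcl11 did not pass without the lymphocyte-rich mice (adjusted p = 0.0772), and Ccl7 did not pass with all mice (0.06).

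Genes of MHC class I and of its peptide supply were higher as well, 10 of 14 tested. Psmb9, a subunit of the immunoproteasome, averaged 0.30 ± 0.39 in side A and -0.20 ± 0.27 in side B (SD, n = 40 each), a log2 difference of 0.50 ± 0.07 (SE). Psmb8, another such subunit, differed by 0.42 ± 0.07 and Tap1, a subunit of the peptide transporter, by 0.55 ± 0.11. Without the lymphocyte-rich mice 8 of the 14 were higher, and with the lymphocyte score as a covariate 5 were. Among MHC class II genes 4 of 6 were higher, among them H2-DMa (0.37 ± 0.09) and Ciita, the regulator of the class (0.33 ± 0.10). Without the lymphocyte-rich mice 1 of the 6 was higher, and with the lymphocyte score as a covariate 0 were.

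The 2 Eif2s3y sets share no mouse. Of the 83 interferon list genes, 77 had a positive difference in Eif2s3y-low mice and 69 in Eif2s3y-high mice, with medians of 0.38 and 0.28, beside 0.00 and -0.01 over all probes. The test of the difference between the sets called 0 (0.0%) of 23006 probes by limma for the redrawn sides, with 1108 at an unadjusted p under 0.05. For the whole-cross sides that test called 7 (0.0304%) probes higher and 0 (0.0%) lower in the Eif2s3y-high set, where side A is 2 mice. Those counts were 2 and 0 without mouse 83, 2 and 1 without mouse 114, 26 and 0 without mouse 122 and 10 and 36 without mouse 246. In the 39 against 5 Eif2s3y-low mice of those sides, 30 (0.13%) probes were higher and 2 (0.00869%) lower. Leaving out a mouse of side B gave 160 and 27 without mouse 246, 23 and 4 without mouse 289, 16 and 0 without mouse 83, 15 and 1 without mouse 305 and 9 and 1 without mouse 359. In the 2 against 36 Eif2s3y-high mice, 334 (1.45%) of 22998 were higher and 48 (0.209%) lower. These counts rest on 1 mouse: they were 46 and 9 without mouse 114 and 292 and 68 without mouse 122, where the lone mouse left in side A is assumed to vary like those of side B.

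**Figure D3:**
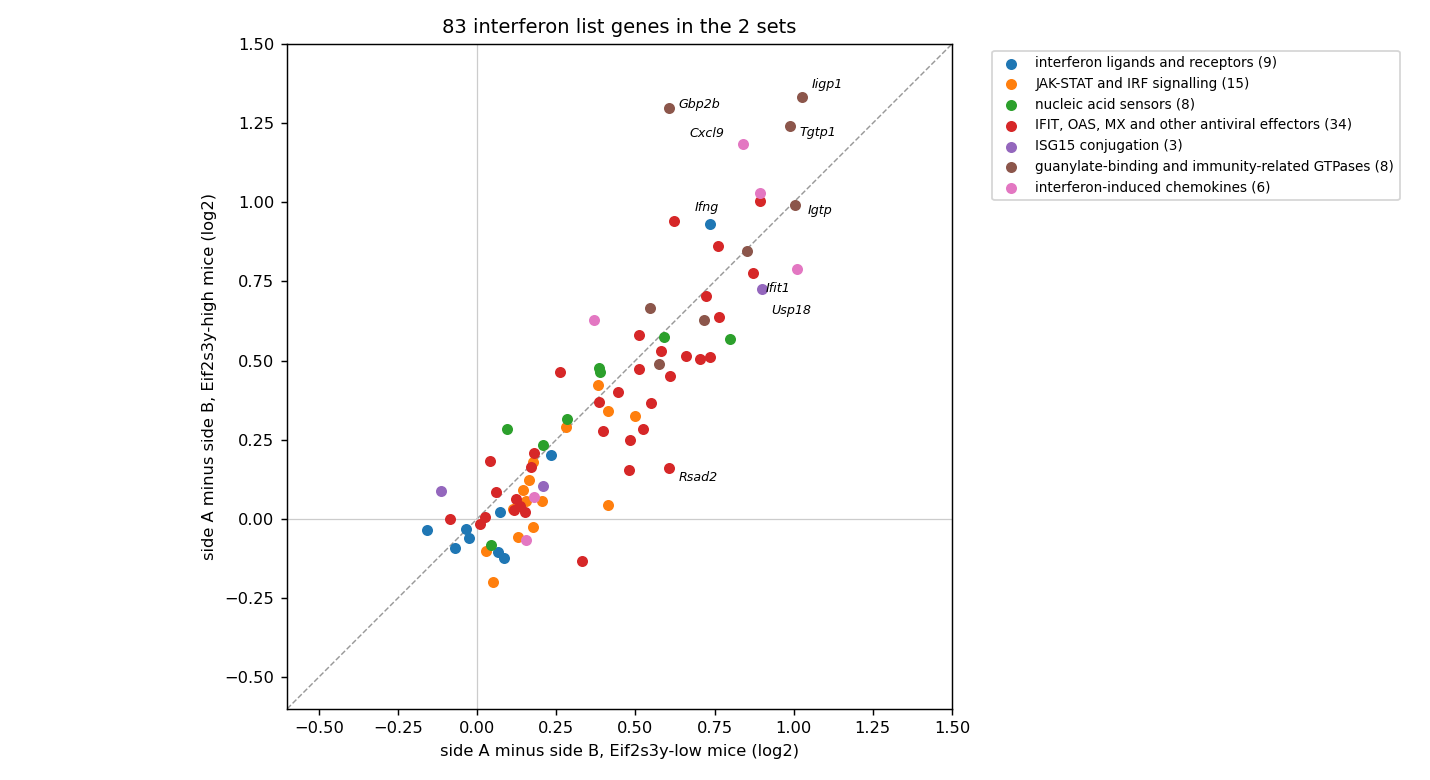
Log2 difference of side A minus side B, drawn within each set, for the 83 tested interferon list genes in Eif2s3y-low mice (x axis) and Eif2s3y-high mice (y axis), coloured by list. The dashed line marks equal differences. Most genes lie above 0 on both axes, 77 on the x axis and 69 on the y axis.

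Lymphocyte genes moved with the interferon genes. Of T cell and NK cell genes 9 of 13 were higher, and of B cell and plasma cell genes 6 of 9. In Eif2s3y-low mice alone those counts were 5 and 3, and in Eif2s3y-high mice alone 4 and 0. In Eif2s3y-high mice 8 of the 9 B cell and plasma cell genes had a positive difference. Cd3g ran from -1.15 to 3.01 with a median of 0.21 in side A of the Eif2s3y-low set, against -1.82 to 0.78 with a median of -0.79 in side B. In the Eif2s3y-high set it ran from -1.75 to 1.98 with a median of 0.22 in side A, against -2.03 to 1.10 with a median of -0.84 in side B. The ranges overlapped in both sets, and the log2 difference was 1.18 ± 0.19 (SE, limma adjusted p = 1.14e-05). Cd3d, another T cell receptor subunit, differed by 0.89 ± 0.17 and Cd8a, of cytotoxic T cells, by 0.62 ± 0.13. Ighm, the heavy chain of IgM, differed by 0.93 ± 0.18, and Ms4a1, which encodes CD20 of B cells, by 0.87 ± 0.20. Of the 5 tested genes of lymph node stroma 2 were higher. They were Cxcl13, a chemokine that guides B cells to follicles (1.23 ± 0.25), and Fcer2a, a receptor of B cells and follicular cells (0.66 ± 0.15). Within this list 2 genes were higher in Eif2s3y-low mice alone. In Eif2s3y-high mice alone 0 were, with 4 of the 5 differences positive. With the lymphocyte score as a covariate 0 of the 5 were higher.

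The size of this rise depends on the 7 lymphocyte-rich mice. The lymphocyte score ran from -0.68 to 3.24 with a median of 0.14 in side A and from -1.07 to 0.99 with a median of -0.42 in side B. Its Pearson r with the interferon score was 0.42 over 142 Eif2s3y-low mice and 0.48 over 105 Eif2s3y-high mice, as a description. Without the 7 mice, Cd3g differed by 0.82 (limma adjusted p = 0.000385) and Ms4a1 by 0.47 (adjusted p = 0.0801), and 7 T and NK genes and 2 B cell genes were higher. With the lymphocyte score as a covariate, 715 (3.11%) probes were higher and 232 (1.01%) lower in side A, and 40 of the 83 interferon genes were higher and 0 lower. In that fit Ifit1 differed by 0.94, Gbp3 by 0.91, Igtp by 0.78, Cxcl10 by 0.55 and Ifng by 0.43. Of the T and NK genes, which are part of that covariate, 1 was higher in it. The part of lymphocytes in the rise of the interferon genes was not tested beyond these fits.

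Macrophage genes varied little with the score within sets. The macrophage score, the mean z-score of its list, ran from -1.69 to 1.47 with a median of 0.05 in side A and from -2.37 to 1.23 with a median of 0.09 in side B. Of macrophage genes 1 of 17 was higher, Fcgr1, the high-affinity IgG receptor, which interferon gamma induces (0.63 ± 0.16, limma adjusted p = 0.0104). Cd68, a lysosomal glycoprotein of macrophages, averaged -0.35 ± 0.82 in side A and -0.26 ± 0.99 in side B (SD, n = 40 each), and Adgre1, which encodes F4/80, differed by 0.13 ± 0.19 (SE, adjusted p = 0.792). With the macrophage score as a covariate, 1097 (4.77%) probes were higher and 642 (2.79%) lower in side A, and 48 of the 83 interferon genes were higher and 0 lower. Of monocyte and neutrophil genes 4 of 12 were higher, among them Ly6c2, a monocyte surface protein (0.44 ± 0.06), and Plac8 (0.57 ± 0.14). With the lymphocyte score as a covariate 1 was higher, and 1 also without the lymphocyte-rich mice. Of dendritic cell genes 1 of 6 was higher, Flt3, a cytokine receptor of their precursors (0.43 ± 0.11), which did not pass without those mice (0.24).

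Genes of the fat cell did not pass as lists. Of 11 tested adipocyte genes 0 passed in either direction by limma (3 at an unadjusted p under 0.05), and of 12 genes of fatty acid synthesis 0 (1 unadjusted). Lep, which encodes leptin, averaged -0.08 ± 0.48 in side A and 0.21 ± 0.52 in side B (SD, n = 40 each), a log2 difference of -0.29 ± 0.11 (SE, adjusted p = 0.121). Of cholesterol synthesis genes 4 of 12 were lower and 0 higher, with a list median of -0.19. They were Mvd (-0.24 ± 0.07), and Sqle (-0.53 ± 0.10), Dhcr7 (-0.44 ± 0.10) and Fdps (-0.49 ± 0.13), enzymes of the same pathway named after their values were seen. Sqle, the squalene epoxidase, had a median of -0.64 in side A and -0.16 in side B of the Eif2s3y-low set, and of -0.14 in side A and 0.08 in side B of the Eif2s3y-high set. In the whole-cross sides 0 of the 12 passed by limma (0 at an unadjusted p under 0.05), and without the lymphocyte-rich mice 3 of the 12 were lower in the redrawn sides.

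**Figure D4:**
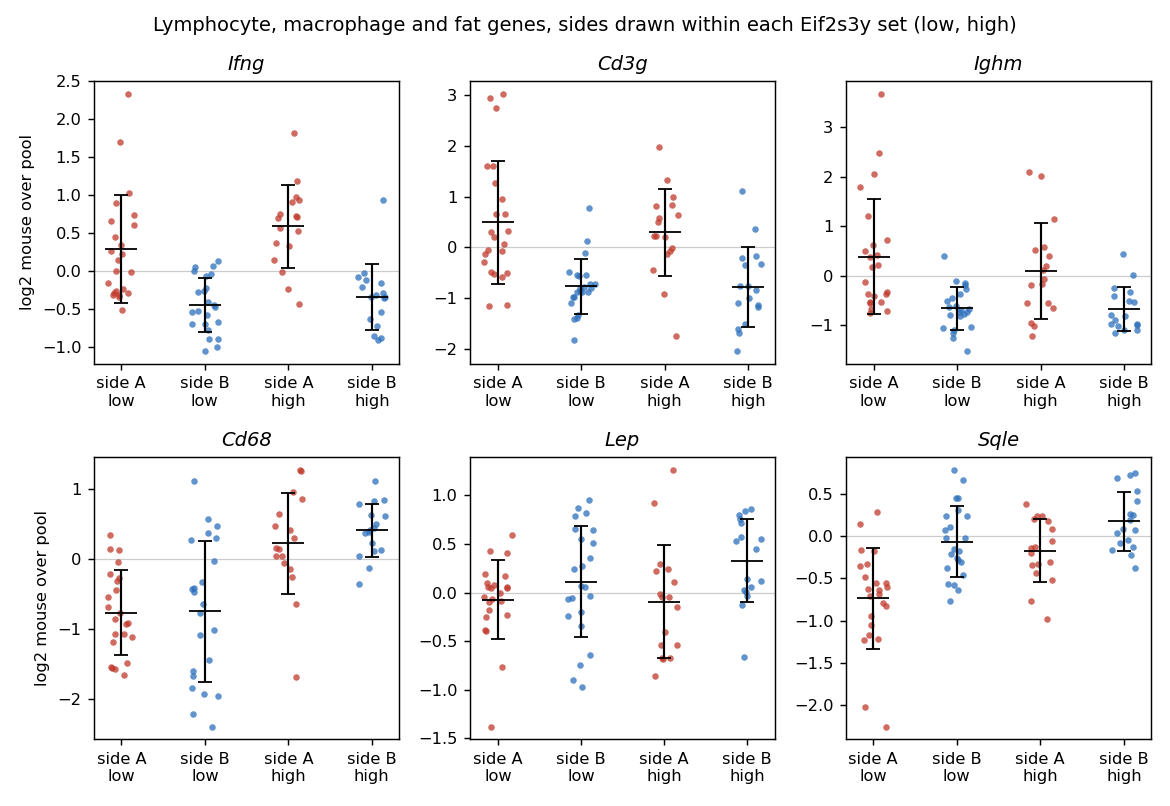
Log2 ratio of mouse over pool (y axis) for Ifng, Cd3g, Ighm, Cd68, Lep and Sqle, 1 point per mouse, in side A and side B drawn within the Eif2s3y-low set (23 mice each) and the Eif2s3y-high set (17 mice each). Bars are mean ± SD. Ifng, Cd3g and Ighm lie higher in side A with a few mice far up, with Cd3g reaching 3.01, and Sqle lies lower in side A.

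Among the other lists, NF-kB and cytokine genes held the most calls. Of these 4 of 12 were higher, among them Vcam1, an adhesion molecule for leukocytes (0.51 ± 0.08), and Nfkbia, an inhibitor of NF-kB (0.27 ± 0.06). Without the lymphocyte-rich mice 2 of the 12 were higher. With the lymphocyte score as a covariate 0 were, and the list median went from 0.14 to 0.0037. Extracellular matrix genes had 1 of 10 lower by limma (8 at an unadjusted p under 0.05), with a list median of -0.27. Thermogenic genes had 1 of 12 lower (4 unadjusted), with a median of -0.20, beside 0.13 in the whole-cross sides. Without the lymphocyte-rich mice 0 genes of either list passed. Of acute phase genes 1 of 8 was higher, Cp, which encodes ceruloplasmin (0.40 ± 0.10). Of steroidogenic genes 1 of 6 was lower, Cyp11b1, a steroid hydroxylase (-0.61 ± 0.13, limma adjusted p = 0.00172). In Eif2s3y-low mice alone 1 of the 6 was lower and the list median was -0.87. In Eif2s3y-high mice alone 0 were lower, the median was 0.11 and 4 of the 6 differences were positive. Of epididymis and epithelium genes 2 of 12 were lower, the keratins Krt18 (-0.91 ± 0.29) and Krt19 (-0.50 ± 0.16), named after their values were seen. Neither passed without the lymphocyte-rich mice (-0.90 and -0.47). Of that list 3 genes were lower in Eif2s3y-low mice alone and 0 in Eif2s3y-high mice alone, with list medians of -0.53 and -0.34.

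**Figure D5:**
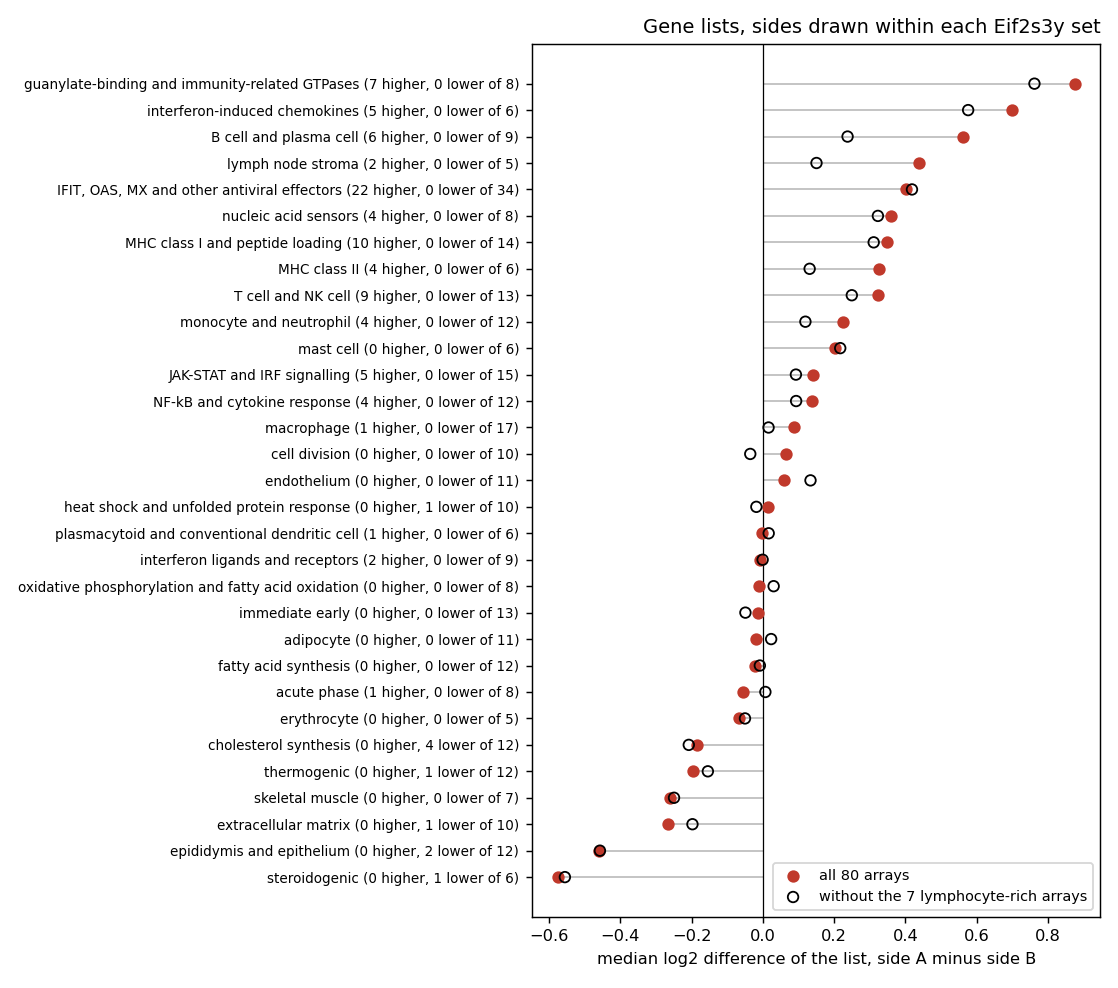
Median log2 difference (x axis) of side A minus side B, drawn within the sets, for each gene list with at least 5 tested genes (y axis). Filled points use all 80 mice and open circles leave out the 7 lymphocyte-rich mice of side A. The GTPase list lies highest at 0.87, the B cell and plasma cell list drops most when the 7 mice are left out, to 0.24, and cholesterol synthesis lies at -0.19.

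Mice in neither whole-cross side give values that the whole-cross comparison did not use. Over these 165 mice, 98 Eif2s3y-low and 67 Eif2s3y-high, the genes whose log2 ratio had the highest Pearson r with the score were Ifit1 (0.65), Gbp3 (0.63), Usp18 (0.63), Apol3 (0.62), Rnf213 (0.58), Sp100 (0.57), Rtp4 (0.55), Iigp1 (0.54), Ifi47 (0.53) and Tgtp1 (0.53). Usp18 had an r of 0.66 within the 98 Eif2s3y-low mice and 0.54 within the 67 Eif2s3y-high mice, and Ifit1 had 0.60 and 0.53. Apol3 had 0.42 and 0.57, and Rnf213 had 0.57 and 0.39. Ranked by the mean of r in both sets, Parp14 (0.64 and 0.54), Ifit2 and Nmi took the place of Apol3, Rnf213 and Tgtp1. The points share the pool, the platform and, over all 165 mice, the split by Eif2s3y. Some of the 165 mice are members of the redrawn sides, which share only 25 mice of side A and 22 of side B with the whole-cross sides. Their values are therefore not apart from the comparison within sets.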

How the data were processed

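Adipose RNA of 295 mice was measured on 2-colour arrays, 1 per mouse. The authors deposited ratios for 23387 probes that were read here as log10, and the correction and normalization behind them are not given in the sources used here. Scale and direction were read from the values: they end at -2 and 2, with 527 at a limit. Against the pool of equal portions that the labels describe, the slope of probe means on probe variances was -1.63, nearer to the -1.15 of log10 for mouse over pool than to the -0.347 of log2. The log base is thus inferred and sets the size of every difference but no call. Array medians ran from -0.0521 to 0.0387 in deposited units. Ratios were multiplied by 3.32 to give log2 values, and gaps (1.02%) were not filled.

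The series text counts 295 mice and the sample text 330. The number of 1 mouse differs between its title and source name, and the title was used. Platform annotation named 13644 probes with 1 symbol, 48 with several and 9695 with none, and 12652 were updated to RefSeq symbols of GRCm38.p6 through Entrez identifiers. Probes measured on at least 90% of kept arrays were tested (23006), without Ifit3 and Irf7, with limma 3.58.1 in R 4.3.3, Benjamini-Hochberg adjustment over all of them and a call at an adjusted p under 0.05. No mouse was measured again, so the spread over mice includes technical error, and the number of arrays limits precision. Ifit3 and Irf7 chose the mice, so a call says that a probe varied with these genes over mice.

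Named are the 12 called genes with the largest and the 12 with the most negative difference whose sign was the same in both sets. Also named are interferon list genes the text turns on, genes called for the difference between sets, Lep, and genes most like the score. The plan was to name the 3 members of each other list with the largest moderated t. Several of those lists have fewer or no members named, and most members named from them were called. Members and lists (33 lists, 446 genes, 352 with a probe) were chosen with earlier results of these data known, and lists carry no test. The sides drawn within sets were planned as an alternative and are described at length because the whole-cross sides rest on 7 mice within a set. On simulated data of 23006 probes with the whole-cross sides, 18% of probes shifted by 0.25, 62% by 0.5 and 92% by 1 were recovered, and 5 unchanged probes were called. Python 3.11.15, NumPy 2.4.6, pandas 2.3.3 and matplotlib 3.10.9 served for summaries and plots.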

Additional observations from a re-analysis of the deposited data

Results flagged for a closer look

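The effect of the side differed between the Eif2s3y sets, high set minus low set in the whole-cross sides, for 7 probes by limma. They were Prl3d3, a prolactin family hormone (2.98, adjusted p = 4.14e-06), Tex14 (1.82), Klrb1b, an NK cell receptor (1.56), an unnamed probe (1.5), BC049352 (1.40), Klra2, another NK cell receptor (1.18), and Cd300e, a myeloid receptor (0.74). Side A of the Eif2s3y-high set is mice 114 and 122 in each, and the numbers higher and lower in that set were 2 and 1 without mouse 114, 2 and 0 without mouse 83, 26 and 0 without mouse 122 and 10 and 36 without mouse 246. In the sides drawn within the sets the difference was 0.32 for Prl3d3, 0.55 for Tex14 and 0.27 for Klrb1b, and 0 of the 7 passed, as 0 of all 23006 probes did.

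Among the 5 low-score mice of the Eif2s3y-low set, mouse 359 had a score of -2.06 far from the others, and the array of mouse 83 had an SD over probes of 0.83 far from the others. Chance flags about 1 in 20 such groups for each measure that did not choose the mice. The score drew these mice from its lower tail, so that rate does not hold for the score of mouse 359.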

How the results depend on the processing

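The whole-cross counts with the set as covariate (179 higher, 26 lower) moved to 2919 and 3419 without that covariate, 899 and 413 with sixths within each set, 1485 and 1056 in a regression on the score, 334 and 72 with sides of 1 in 4 mice, 29 and 1 with sides of 1 in 10 mice, 3367 and 4021 with Ifit3 alone as the score, and 69 and 0 with all arrays. The lower count alone moved to 2 with Irf7 alone, 6 with array medians subtracted, 50 with a macrophage score and 17 with groups of mouse number. A lymphocyte score gave 91 and 15, and leaving out each of the 7 mice gave 67 to 1013 higher and 0 to 1639 lower. The lymphocyte score, the settings that leave out mice, those of the within-set sides and the regressions within sets and between them were chosen after seeing the data. In Eif2s3y-low mice (30 and 2), sixths within the set gave 278 and 113, regression 828 and 421, array medians subtracted 1 lower, and leaving out a mouse 9 to 160 higher and 0 to 27 lower. In Eif2s3y-high mice (334 and 48), regression gave 606 and 230, and leaving out a mouse 46 to 292 higher and 9 to 68 lower. The difference between sets (7 and 0) was 0 and 0 with sixths within each set and with regression, and 2 to 26 higher and 0 to 36 lower without a mouse. The within-set sides (899 and 413) gave 642 lower with the macrophage score, 232 lower with the lymphocyte score and 511 and 130 without the lymphocyte-rich arrays, and leaving out a mouse 829 to 949 higher and 369 to 454 lower. Interferon list members (32 higher, 0 lower) numbered 18 with sides of 1 in 10 mice and 52 in the regression, with 6 lower without the covariate and 6 with Ifit3 alone, and 27 to 40 higher with 0 to 1 lower without a mouse. Within sets their count of 46 stayed between 40 and 48 with 0 lower under the alternatives run. Btg1c (0.0023) and Gng8 (0.0077) turned sign without the covariate. In the within-set sides Cd8a (-0.0059), Ciita (-0.066), Ms4a1 (-0.076), Ifna1 (-0.085), Oas3 (-0.035), Xaf1 (-0.0029) and Adgre1 (-0.054) did with the lymphocyte score, Ccl7 (-0.0086) with the macrophage score and Tlr9 (0.0080) with array medians subtracted. Cd8a and Ms4a1 are members of the lists that make up the lymphocyte score, so that covariate takes up part of their own difference. The cause of the other sign changes was not tested. No paired analysis was possible because all mice form 1 group and a mouse number names a single array.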
